A study of Danio rerio with 4 samples.

Results

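The CCT chaperonin, also called TRiC, is a double ring of related ATP-driven subunits that folds actin, tubulin and many proteins with WD40 repeats in the cytosol. Each ring is made of different subunits, so the complex draws on separate genes for its parts. Grwd1, the protein targeted here, is itself a WD40-repeat protein that takes part in late assembly of the large ribosomal subunit. Prefoldin, which hands unfolded clients over, and phosducin-like proteins work beside CCT.

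The subunit genes were found by gene symbol, ignoring case, in the table of counts per gene. Of the 8 symbols sought (*tcp1*, *cct2*, *cct3*, *cct4*, *cct5*, *cct6a*, *cct7* and *cct8*), 7 were matched, by 8 of the 32520 genes of the table, since *cct2* is the symbol of 2 gene IDs. No gene carried the symbol *cct6a*, which encodes the zeta subunit. The name table lists 1 gene as *cct6b* (ENSDARG00000021252), a mammalian paralog of the zeta subunit, while the RefSeq gene table of another zebrafish assembly lists *cct6a* and no *cct6b*. This gene is described beside the 8 and is not counted with them unless stated.

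RNA was sequenced from whole zebrafish larvae at 8 dpf (days post fertilization), in 2 *grwd1* crispant libraries and 2 wt libraries. Each group was a pool of 15 larvae. Crispants are larvae grown from embryos injected at the one-cell stage with 100 pg of each of 2 guide RNAs against *grwd1* and 150 pg of Cas9 mRNA, and wt larvae are described as wildtype, raised in the same buffer at the same temperature. Crispants are mosaic, so edited and unedited cells share a pool, and nothing states that the duplicate libraries came from separate pools. If they did not, the p-values reflect technical spread alone. The guides are shown because they define the crispant group, 5′ to 3′ and without their PAM.
grwd1 gRNA1: gatacatgcggtaagcggag
grwd1 gRNA2: actccaccgacagatcccat

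The counts summed to 15916216 to 18619802 per library, with overlapping depths between groups. *grwd1* (ENSDARG00000004806) had 123 and 102 counts in the crispant libraries, against 390 and 439 in the wt libraries. Its log2 fold change, crispants over wt as throughout, was -1.94 (SE, the standard error, 0.18, edgeR adjusted p = 3.25e-14), in the direction the labels give. Markers of muscle, neurons, photoreceptors, lens, liver, gut, exocrine pancreas, skin, red cells and leukocytes were present, as whole larvae would give, and no matched marker was at 0 in all libraries. Those of red cells and leukocytes were at low levels.

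All 8 CCT genes were lower in *grwd1* crispants. Their log2 fold changes lay between -0.52 and -0.28 with a median of -0.34, against a median of 0.0046 over the 20479 genes tested. Each passed edgeR's quasi-likelihood test, with the threshold at a Benjamini-Hochberg adjusted p of 0.05 over all genes tested, and 0 of the 8 were higher in edgeR, DESeq2 or limma-voom. Among all genes tested, 7.44% passed as lower and 8.98% as higher. For each of the 8, both crispant libraries lay below both wt libraries, as did those of 26.5% of all genes tested. The gene listed as *cct6b* did the same, so that all 9 genes fell.

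Most CCT genes were highly expressed. Apart from the less counted *cct2* gene, the CCT genes are among the 332 most abundant genes tested, those with a mean log2 CPM of at least 8.51 (CPM, counts scaled to a common library size). This cut-off was set at the lowest mean of those 7 CCT genes, so their place among the 332 follows from it. Of these 332 genes, 55.4% passed as lower and 68.4% had both crispant libraries below both wt libraries. Their median log2 fold change was -0.24, and 117 of them had a log2 fold change below the CCT median. Ribosomal protein symbols made up 73 of the 332, and 71 of those 73 fell, with a median of -0.41. Among the 259 abundant genes left, CCT included, 43.6% fell and the median was -0.12.

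**Figure D1:**
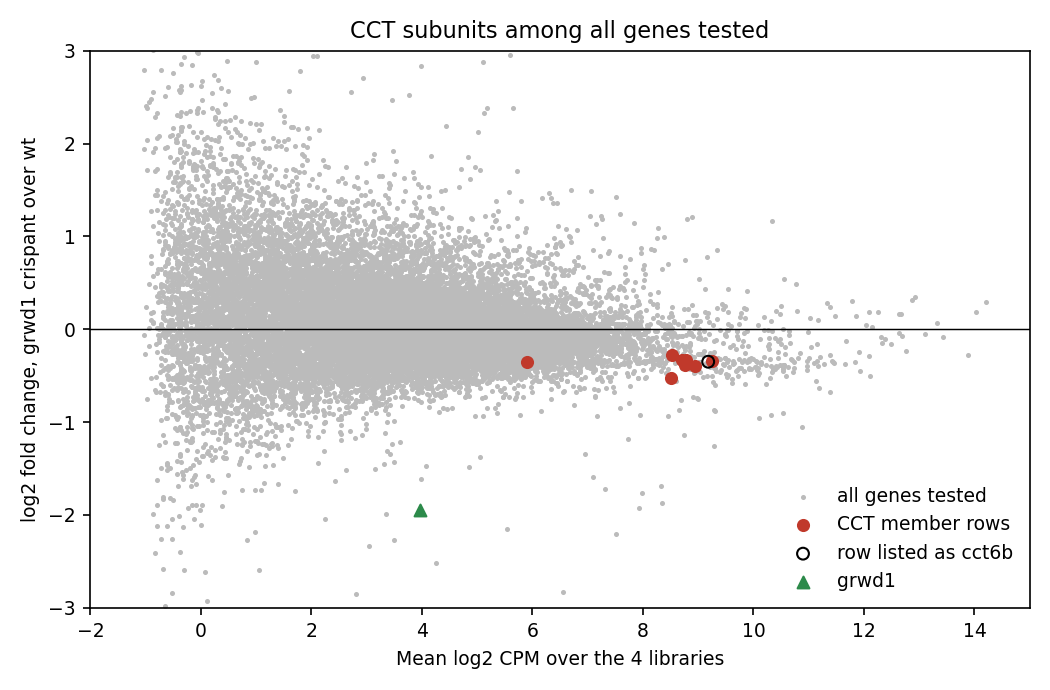
Log2 fold change (crispant over wt, y axis) against mean log2 CPM (x axis) for all genes tested, in grey, except the genes that lie beyond the axes. The CCT genes (red), at -0.52 to -0.28, and the gene listed as cct6b (open circle) sit below 0 at the abundant end, apart from the less counted cct2 gene, and grwd1 (triangle) is at -1.94.

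The subunits are taken in turn by their place in the ring. In yeast and mammalian CCT, the subunits Cct1, Cct2, Cct4 and Cct5 form the side that binds ATP more tightly, and Cct3, Cct6, Cct7 and Cct8 form the opposite side. Reads were counted per gene and not per length, so levels are compared between libraries and not between subunits.

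On the tight side, *tcp1* (ENSDARG00000017891) encodes Cct1, the subunit that gave the complex its name. It measured 376 and 407 CPM in the crispant libraries, against 477 and 504 CPM in the wt libraries. The groups did not overlap, and *tcp1* fell to 79.8% of its wt level (log2 fold change -0.33, standard error 0.07, adjusted p = 0.000143 from edgeR).

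*cct2* encodes the beta subunit, which in human cells has also been described as a receptor for the autophagy of protein aggregates. The more counted gene with this symbol (ENSDARG00000104674) had 309 and 288 CPM in the crispant libraries, against 447 and 412 CPM in the wt libraries. This was the deepest fall of the group, to 69.6% of wt (95% interval 63.3% to 76.4%), with a log2 fold change of -0.52 (SE 0.07, edgeR adjusted p = 6.34e-09). The second *cct2* gene (ENSDARG00000087206) was far less counted. Its levels were 50.2 and 54.4 CPM in the crispant libraries, against 71.2 and 62.0 CPM in the wt libraries, a log2 fold change of -0.35 (SE 0.10, edgeR adjusted p = 0.00751). Its call was the least stable of the 8, being lost without wt replicate 1 (-0.25, adjusted p = 0.226 from edgeR) and without crispant replicate 1 (-0.29, adjusted p = 0.0856).

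The 2 *cct2* genes may share reads, since the sources do not say how multi-mapping reads were handled, and their separate values are uncertain. The less counted gene held 13.9% and 15.9% of the reads of both in the crispant libraries, against 13.7% and 13.1% in the wt libraries. The exact 95% binomial intervals, which cover counting error only, were 13.1% to 14.8% and 14.9% to 16.9% in crispants, and 12.99% to 14.50% and 12.4% to 13.8% in wt. The share in crispant replicate 1 thus lay within counting error of wt replicate 1, while that of crispant replicate 2 lay above both wt libraries. With the reads of both genes summed, *cct2* had a log2 fold change of -0.50 (SE 0.07, edgeR adjusted p = 1.63e-08).

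*cct4* (ENSDARG00000013475) encodes the delta subunit. It had 514 and 557 CPM in the crispant libraries, against 714 and 640 CPM in the wt libraries, a log2 fold change of -0.34 (SE 0.07, edgeR adjusted p = 6.82e-05). The wt libraries stood further apart here than for most subunits. Without wt replicate 1, the higher of them, the value was -0.26 and missed the threshold (adjusted p = 0.0674 from edgeR).

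*cct5* (ENSDARG00000045399) encodes the epsilon subunit, variants of which cause a hereditary sensory neuropathy in humans. Its levels were 333 and 329 CPM in the crispant libraries, against 400 and 402 CPM in the wt libraries. The replicates nearly coincided, and the fall to 82.5% of wt (95% interval 75.2% to 90.4%) was the smallest of the group, with a log2 fold change of -0.28 (SE 0.07, edgeR adjusted p = 0.00130). The intervals of *cct5* and of the more counted *cct2* gene, -0.41 to -0.14 and -0.66 to -0.39 on the log2 scale, overlapped narrowly. Their difference was not tested.

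**Figure D2:**
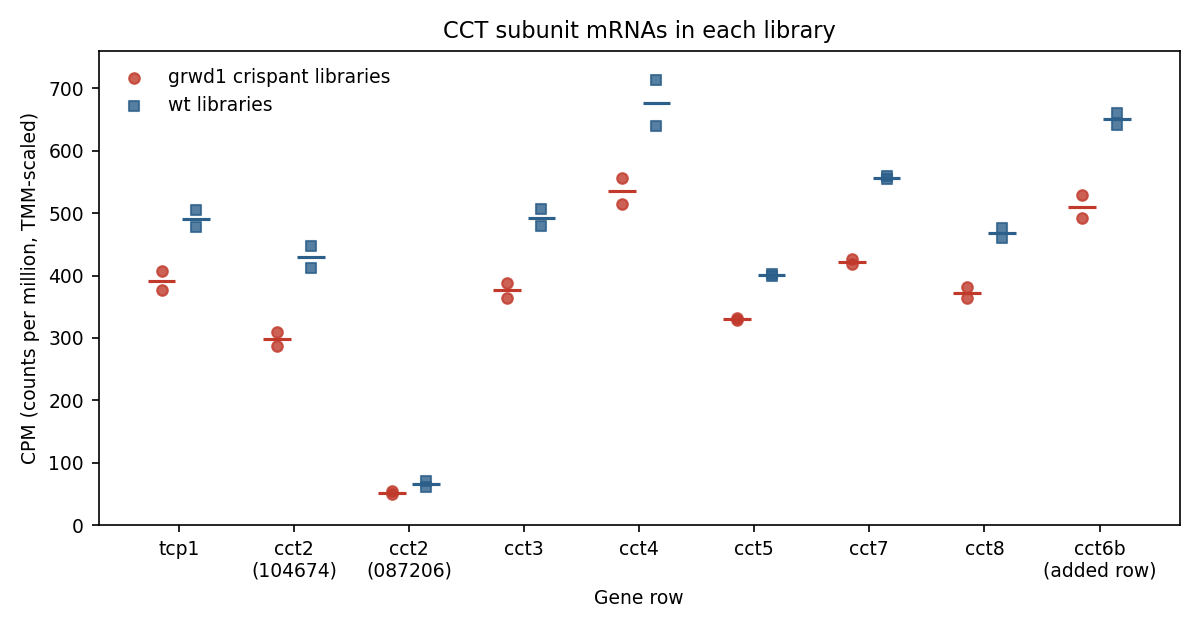
CPM (y axis) of each CCT gene and of the gene listed as cct6b (x axis) in the 2 grwd1 crispant libraries (red circles) and the 2 wt libraries (blue squares), with the mean of each group as a bar; the genes named cct2 are told apart by the end of their gene ID. For all 9 genes both crispant libraries lie below both wt libraries, as for tcp1 with 376 and 407 CPM in crispants and 477 and 504 CPM in wt.

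On the opposite side, *cct3* (ENSDARG00000016173) encodes the gamma subunit. It had 364 and 388 CPM in the crispant libraries, against 507 and 479 CPM in the wt libraries. It fell to 76.4% of wt, with a log2 fold change of -0.39 (SE 0.07, edgeR adjusted p = 5.58e-06). The gap between the groups was larger than the gap within either.

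*cct7* (ENSDARG00000007385) encodes the eta subunit. Its levels were 418 and 427 CPM in the crispant libraries, against 554 and 559 CPM in the wt libraries, and the duplicates were again close. Its log2 fold change was -0.40 (SE 0.07, edgeR adjusted p = 2.01e-06).

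*cct8* (ENSDARG00000008243) encodes the theta subunit, which in *C. elegans* and human stem cells has been reported to promote assembly of the whole complex. It had 364 and 381 CPM in the crispant libraries, against 476 and 460 CPM in the wt libraries, a log2 fold change of -0.33 (SE 0.07, edgeR adjusted p = 0.000110). The groups were separate for this gene as well.

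The gene listed as *cct6b* measured 492 and 529 CPM in the crispant libraries, against 640 and 660 CPM in the wt libraries. Its log2 fold change of -0.35 (SE 0.06, edgeR adjusted p = 2.76e-05) lay close to the CCT median. With it counted among them, the median of the 9 genes was -0.35.

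Summed over the 8 genes, CCT mRNA came to 2729 and 2831 CPM in the crispant libraries, against 3646 and 3518 CPM in the wt libraries. The mean was 2780 ± 72.4 CPM in crispants and 3582 ± 90.4 CPM in wt (SD, n = 2), so the crispant level was 77.6% of wt, a log2 change of -0.37. The gap between groups exceeded the spread within them. With 2 libraries against 2, no exact permutation test of a single value can go below 0.333, and none was run on the sum.

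The mean shares of the genes moved by 1.06 percentage points or less, on crispant mean shares of 1.59% to 16.3%. Of the summed CPM of the 9 genes, the more counted *cct2* gene took 9.61% and 8.57% in the crispant libraries, against 10.4% and 9.86% in the wt libraries. This was the largest shift in mean share, by -1.06 percentage points. The next was that of *cct5*, with 10.3% and 9.80% in the crispant libraries, against 9.33% and 9.63% in the wt libraries, a shift of 0.58 points. For both genes the groups did not overlap. Nor did they for *cct8*, which moved by 0.27 points (11.29% and 11.34% in crispants, 11.10% and 11.00% in wt). In contrast, *tcp1* moved by 0.30 points with overlapping groups (11.7% and 12.1% in crispants, 11.1% and 12.1% in wt). With 2 libraries against 2, random order keeps the groups apart with a probability of 0.333, so separate groups say little about a share. A lower share of *cct2* raises the shares of the rest, and the shifts were not tested.

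Replicates of a group differed by less than the groups did in the mean of the 8 genes, and not in 1 direction gene by gene. In crispants, replicate 1 was below replicate 2 for *tcp1*, *cct3*, *cct4*, *cct7*, *cct8* and the less counted *cct2* gene, by 0.03 to 0.12 on the log2 scale in size, and above it for *cct5* and the more counted *cct2* gene. In wt, replicate 1 was above replicate 2 for both *cct2* genes, *cct3*, *cct4* and *cct8*, by 0.05 to 0.20, and below it for *tcp1*, *cct5* and *cct7*, by 0.01 to 0.08 in size. The mean of the 8 genes, each centred on its own mean, was -0.21 and -0.16 on the log2 scale in the crispant libraries, against 0.21 and 0.15 in the wt libraries. The distance between groups was thus several times that between duplicates.

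The 5 genes outside the complex with the most similar profile were found by Euclidean distance of centred log2 CPM over the 4 libraries, among 4648 genes with a mean log2 CPM of at least 5. In order of distance, they were *prph2* (0.017), a gene of photoreceptor outer segments, *rsl24d1* (0.018), which encodes a factor of large ribosomal subunit assembly, *eef1b2* (0.019), which encodes a translation elongation factor, *irf2bpl* (0.021) and *btbd2* (0.022). Their log2 fold changes lay between -0.38 and -0.36. With 4 libraries in 2 groups, such likeness mainly records the same change between the groups and the same gap between duplicates.

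Prefoldin is a separate complex of smaller subunits. Of its 6 genes, 1 fell, 0 rose and 5 did not pass, with a median of -0.16. *vbp1*, which encodes prefoldin subunit 3, had 53.0 and 54.0 CPM in the crispant libraries, against 71.73 and 70.15 CPM in the wt libraries, a log2 fold change of -0.41 (adjusted p = 0.000899 from edgeR). The value of *pfdn2* was 0.32, with an adjusted p of 0.104 in edgeR (0.0392 with library totals alone, where it rose), so the list held values of both signs. Of 4 partners of CCT (*pdcl*, *pdcl3*, *txndc9* and *pdcd5*), only *txndc9*, which encodes a phosducin-like protein, passed in edgeR (-0.26, adjusted p = 0.0321), and its call was lost with DESeq2, at an adjusted p of 0.01, with library totals alone, and without wt replicate 1, wt replicate 2 or crispant replicate 1. All 4 values were below 0, with a median of -0.21. The standard errors of these 4 genes, *vbp1* and *pfdn2* were 0.09 to 0.14, against 0.06 to 0.10 for the CCT genes and the gene listed as *cct6b*.

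None of the 5 other chaperonin genes tested was called by edgeR, by DESeq2 or by limma-voom, although *hspd1* alone had an unadjusted p below 0.05 in edgeR. With library totals alone as the scale *hspd1* did pass (0.26, edgeR adjusted p = 0.0125). The mitochondrial chaperonin *hspd1* measured 125 and 135 CPM in the crispant libraries, against 117 and 112 CPM in the wt libraries, a log2 fold change of 0.18 with a 95% interval of 0.03 to 0.34 and an adjusted p of 0.104 from edgeR. That interval lies wholly above those of all 8 CCT genes. Its co-chaperonin *hspe1* had a value of 0.07. The CCT-related genes *mkks*, *bbs10* and *bbs12* were at 0.62 to 4.23 CPM, too low for a change of this size to be detectable at this depth.

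**Figure D3:**
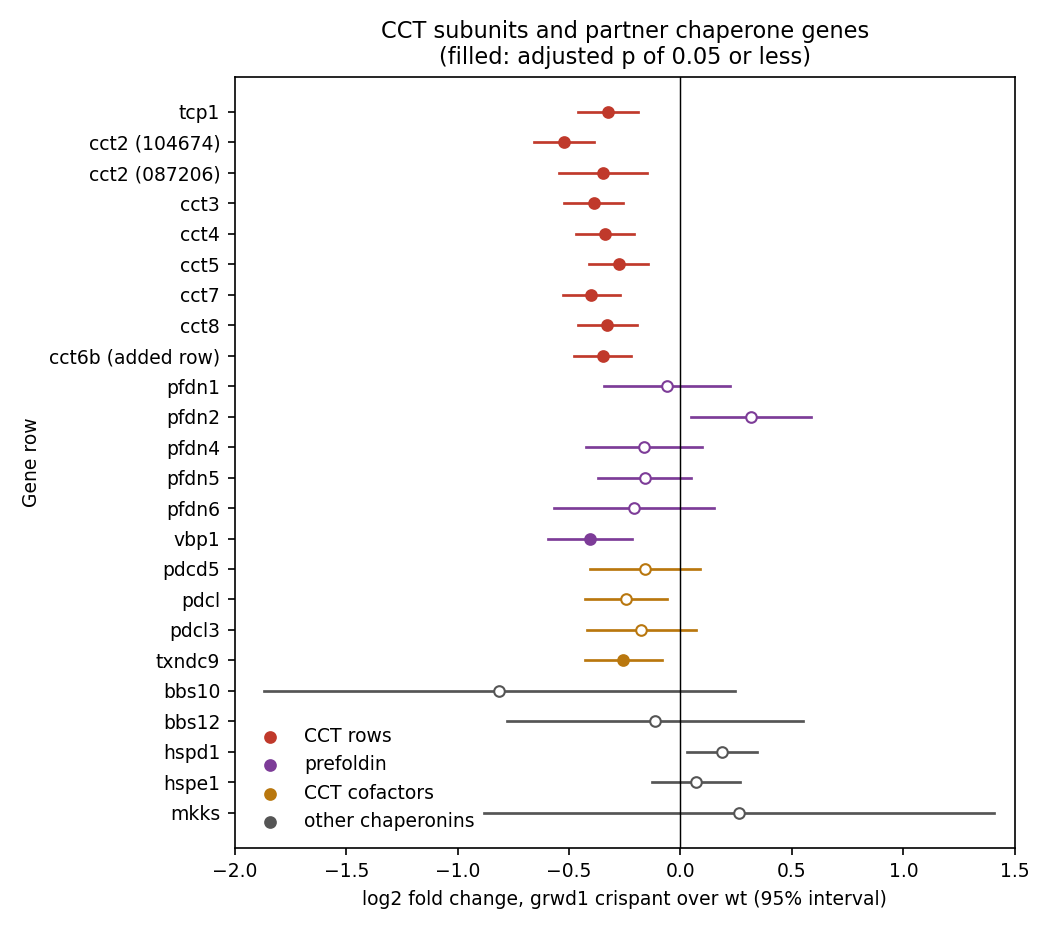
Log2 fold change, crispant over wt (x axis), with its 95% interval for the CCT genes, prefoldin, CCT cofactors and other chaperonins (y axis, 1 gene a line); filled points passed edgeR's test (adjusted p up to 0.05). The intervals of the CCT genes lie below 0, while hspd1 is at 0.18 and, of the prefoldin genes, vbp1 alone passed, at -0.41.

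CCT clients did not move in a common direction. Of 18 actin and tubulin genes tested, 6 rose and 2 fell, with a median of 0.03 that pools both families. Every actin gene tested rose, at 0.19 to 0.74, while both falls were tubulin genes and no tubulin gene passed as higher in this fit. With limma-voom, library totals alone, or at least 10 counts in every library, 7 genes rose. The list holds only 6 actin genes, so a tubulin gene was among those 7. Those with the smallest p were 1 copy of *acta1* (ENSDARG00000055618, 0.74), a skeletal muscle actin, and *acta2* (0.59), a smooth muscle actin, among the rises, and the tubulin genes *tuba1c* (-0.51) and *tubb5* (-0.39) among the falls. The call of *tubb5* was lost with DESeq2, at an adjusted p of 0.01, with library totals alone, and without wt replicate 1, wt replicate 2 or crispant replicate 1, so that 1 gene fell in each of these. Without wt replicate 2, 3 of the 18 rose. Copies of actin genes are near-identical, so their values are uncertain. Of 21 WD40-repeat and other clients, 5 fell and 1 rose, with a median of -0.17. The falls with the smallest p were *gnb3* (ENSDARG00000004358, -0.71) and *gnb3b* (-0.39), both of which encode G protein beta subunits of the retina, and the rise was *plk1* (0.76), a mitotic kinase. *plk1* no longer passed with DESeq2, at an adjusted p of 0.01, or without wt replicate 2 or either crispant library. Only 3 genes of this list fell with DESeq2, at an adjusted p of 0.01, or with library totals alone. Fewer than 5 also fell whenever a library was left out.

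Cytosolic heat shock genes and their HSF factors, known as regulators of CCT genes in human cells, had a median of -0.03 over 20 genes, of which 3 fell and 1 rose. *hsp90aa1.1*, an Hsp90 gene of developing muscle, fell by 0.36 on the log2 scale (adjusted p = 0.000106 from edgeR), and *stip1*, which encodes an Hsp70-Hsp90 organizing protein, by 0.28 (0.0105). *dnajb1b*, a heat-inducible Hsp40 gene, rose (0.70, adjusted p = 0.00220 from edgeR). The call of *dnajb1b* was lost without wt replicate 1 (0.53, edgeR adjusted p = 0.0884), and that of *stip1* at an adjusted p of 0.01, with library totals alone, and without wt replicate 2 (-0.19, edgeR adjusted p = 0.290). *hsf1* itself had a value of 0.12 (95% interval -0.23 to 0.47). Of 16 markers of proliferating cells, 6 rose and 0 fell, and *mki67* (1.49) and *top2a* (0.82) had the smallest p among the rises. At an unadjusted p under 0.05, edgeR gave no marker of that list as lower either. Rises were fewer without wt replicate 1 or without crispant replicate 2, and numbered 2 with DESeq2 or at an adjusted p of 0.01.

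In whole-larva RNA, fewer cells of a type and less RNA per cell cannot be told apart. Tissue markers differed between the groups in both directions. Of all genes tested, 7.44% fell and 8.98% rose. Every gene with a matched symbol was counted, so copies enter separately. Several neuronal genes share a symbol with another, and most of the photoreceptor genes share 1 symbol. Of 7 neuronal marker genes, 6 fell and the other, at 0.66, did not pass. With library totals alone, or with a block on replicate number, this other gene passed as higher. The summed level of the 7 genes was 1681 and 1692 CPM in the crispant libraries, against 2149 and 2165 CPM in the wt libraries. Of 6 photoreceptor genes, 3 fell, with sums of 670 and 737 CPM in crispants and 1132 and 1046 CPM in wt. Both pancreas genes that matched a symbol, a minority of those sought, and 3 of 5 lens genes fell as well, as did 1 of 3 red cell genes tested. In contrast, of 6 enterocyte genes 5 rose and 1 fell, with sums of 817 and 873 CPM in crispants and 622 and 598 CPM in wt. Of 5 hepatocyte genes 3 rose, with sums of 2338 and 2431 CPM in crispants and 1752 and 1765 CPM in wt, as did 3 of 7 muscle genes. The muscle genes that rose include both copies of *acta1*, which are also counted among the actin rises above. Of 5 skin genes, 4 rose and 1 fell. The 2 leukocyte genes tested had values of 0.16 and 0.36. The part of these shifts in the CCT result was not tested.

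The direction of the CCT genes was the same under all settings tried, but not every setting could change it. The stricter adjusted p threshold keeps the same fitted values. Leaving out 1 library can hardly reverse genes whose groups do not overlap. The other tools, filters and the block refit the same 4 libraries and can hardly reverse such genes either. The stricter threshold bears on the calls alone, and the rest of these settings on calls and sizes. Another scaling can change direction only by shifting all genes almost alike. The largest such shift, with library totals alone, took the median of all genes tested from 0.0046 to 0.077, small beside the CCT falls. Under 13 alternatives, all 8 stayed below 0, at log2 fold changes of -0.58 to -0.20, and 6 of the 8 passed in each of them. The exceptions were those given above for *cct4* and the less counted *cct2* gene. With library totals alone as the scale, the median was -0.27, all 8 passed, and the split of all calls moved to 2355 higher and 1000 lower, against 1839 and 1524 with TMM scaling.

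**Figure D4:**
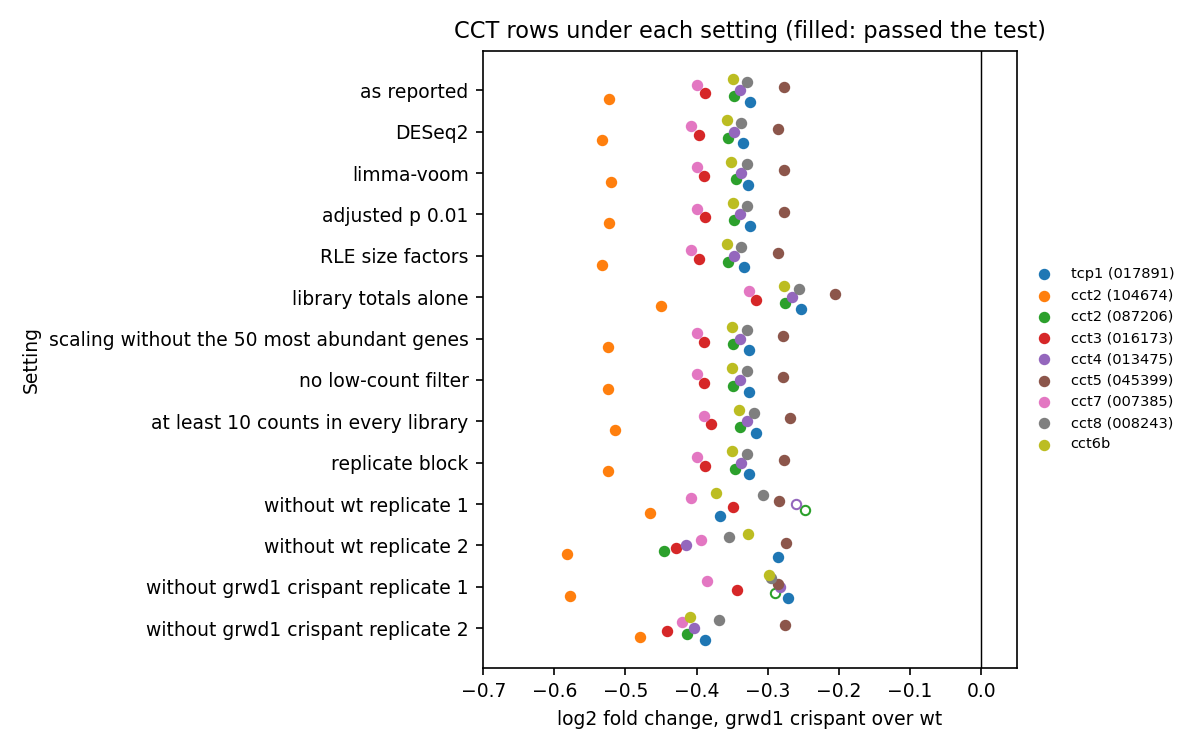
Log2 fold change, crispant over wt (x axis), of the 8 CCT genes and the gene listed as cct6b (colours, with the end of the gene ID) as reported and under 13 alternative settings (y axis); open points did not pass the test. All points lie below 0, between -0.58 and -0.20, and the open points are cct4 and the less counted cct2 gene without wt replicate 1 and this cct2 gene without grwd1 crispant replicate 1.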

How the data were processed

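The deposited table holds whole-number read counts per Ensembl gene for 4 whole-larva libraries made with a stranded total RNA kit that depletes rRNA; per the labels, they were also enriched for poly(A) RNA. The authors used Trimmomatic 0.39 for trimming, HISAT2 for alignment to GRCz11 and featureCounts for counting. For the annotation release, strand setting and multi-mapping reads, the choice was not given in the sources used here. Of 32667 lines, 147 exact repeats were dropped. Symbols came from a name table that matched 29201 of 32520 genes (89.8%). A list name with no match was tried without its final copy letter, and all genes with the matched symbol were counted.

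Groups came from the sample labels. Genes passing filterByExpr were scaled by TMM and compared by edgeR 4.0.16 (glmQLFit, glmQLFTest) in R 4.3.3, with group as the only term and Benjamini-Hochberg adjustment over all 20479 genes tested. A standard error is the log2 fold change divided by the square root of F. DESeq2 1.42.0 and limma 3.58.1 were alternatives, with other scalings, filters, a block and each library left out. The common biological coefficient of variation was 0.106. Duplicate libraries were distinct beyond counting noise (chi-square over its degrees of freedom 5.00 in crispants and 4.47 in wt).

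The CCT genes and all lists were chosen with earlier results of these data known. Named genes are *grwd1*, the CCT genes, the called genes of smallest p in each list and direction (up to 2 in lists over 10 genes) and the 5 nearest profiles; other named genes of the lists (*pfdn2*, *pdcl*, *pdcl3*, *pdcd5*, *hspd1*, *hspe1*, *mkks*, *bbs10*, *bbs12*, *hsf1*) fall outside this rule and were chosen after their values were seen. Levels per coding length were planned but no lengths were used here, and no sequence of the CCT genes is shown.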

Additional observations from a re-analysis of the deposited data

How the results depend on the processing

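The log2 fold change of every CCT gene kept its direction under all 13 alternatives. Apart from the other scalings, whose shifts were small, these alternatives could hardly have changed it, as said above. Leaving out wt replicate 1 took 2 calls, *cct4* (-0.26) and the less counted *cct2* gene (-0.25), and leaving out crispant replicate 1 took that of this *cct2* gene (-0.29), so 6 to 8 of the 8 passed when a library was left out. The range over left-out libraries was -0.42 to -0.26 for *cct4* and -0.45 to -0.25 for this *cct2* gene. The CCT median then ranged over -0.41 to -0.29. With library totals alone it was -0.27, and the summed level changed by -0.29 on the log2 scale. Alternatives added after seeing the data gave 7 of 7 genes lower with the *cct2* reads summed (median -0.34) and 9 of 9 with *cct6b* (sum -0.36). Nothing in the labels says that a replicate number marks a shared clutch or day, and the correlation of replicate differences between groups was -0.0064. With the replicate block, all 8 passed, with a median of -0.34, among 1809 genes higher and 1451 lower.

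Of all genes, 1208 were higher with DESeq2. At an adjusted p of 0.01, edgeR gave 1193 higher and 938 lower, and with library totals alone 1000 lower. Without 1 library, 935 to 1327 were lower (935 without wt replicate 1, 1003 without wt replicate 2) and 1266 to 1375 higher. Over all alternatives, the calls of the related lists ranged as follows. Prefoldin had 1 lower and 0 to 1 higher, CCT partners 0 to 2 lower, other chaperonins 0 to 1 higher, actins and tubulins 1 to 3 lower and 3 to 7 higher, other clients 3 to 5 lower and 0 to 1 higher, heat shock genes 1 to 4 lower and 0 to 1 higher, and proliferation markers 2 to 7 higher. The value of *hsf1*, which did not pass, ranged over -0.037 to 0.25 without 1 library and was below 0 without crispant replicate 1. The causes of these moves were not tested. Depth limits what can be said of *mkks*, *bbs10* and *bbs12*.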
